A study of Homo sapiens with 6 samples.

Results

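The phagocyte NADPH oxidase is described here through the mRNAs of 6 subunit genes, CYBB, CYBA, NCF1, NCF4, RAC1 and RAC2, in NB4 cells. The genes were taken by symbol from the deposited table of normalized counts, and all 6 were found among its 18625 genes. NB4 is a human promyelocytic leukemia cell line, here grown in RPMI-1640 medium with fetal bovine serum and treated for 3 days with DMSO, the solvent, or with Tan I (Tanshinone I, a lipophilic compound of Salvia miltiorrhiza) at 10 μM. Each group had 3 RNA-seq libraries, and the labels do not say whether these came from separate cultures, so the p-values below measure the spread between these libraries only. The question was whether the subunit mRNAs differed between Tan I and DMSO. The libraries held between 21502760 and 31679138 reads on the listed genes.

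The oxidase transfers electrons from NADPH to oxygen and so makes superoxide, which neutrophils and macrophages use against microbes. Its catalytic core, flavocytochrome b558, sits in the membrane and consists of gp91phox, made from CYBB, and p22phox, made from CYBA. In resting cells the organizer p47phox (NCF1) and p40phox (NCF4) stay in the cytosol, and on stimulation they move to the membrane together with a GTP-bound Rac protein. Promyelocytes have little oxidase, and its subunits accumulate as granulocytes mature.

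The mRNAs of 2 cytosolic subunits, NCF1 and NCF4, lay above the whole DMSO range in all 3 Tan I libraries. On average NCF1 was 1.99 times and NCF4 1.55 times as high in Tan I as in DMSO. The membrane pair CYBB and CYBA and the GTPases RAC1 and RAC2 overlapped between the groups. The unadjusted rule asked for p of 0.05 or less in limma together with a log2 difference of 0.25 or more in size. It called 2 of the 6 genes, both higher in Tan I, and of the 16887 genes tested it called 2.42%, with 1.32% higher and 1.1% lower in Tan I. The count behind that share was unstable, since the 408 genes called became 160 without Tan I replicate 2 and 1496 without Tan I replicate 1, while 2 of the 6 subunit genes were called each time. Every Tan I library lay above every DMSO library for 2 of the 6 genes and for 3.92% of the genes tested, and below for 0 of the 6 and 3.97%, which makes 7.89% without overlap. With an adjusted p of at most 0.05, limma called 0 of the 6 genes and 0 of all genes tested (0%), while 2 of the 6 and 410 of all genes (2.43%) had an unadjusted p of at most 0.05. On reads recovered from the deposited values, edgeR and DESeq2 likewise called 0 of the 6 genes after adjustment, and over all genes 0 and 16. These are levels in bulk RNA, in which a change in the number of cells with an mRNA and a change in mRNA per cell cannot be told apart.

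**Figure D1:**
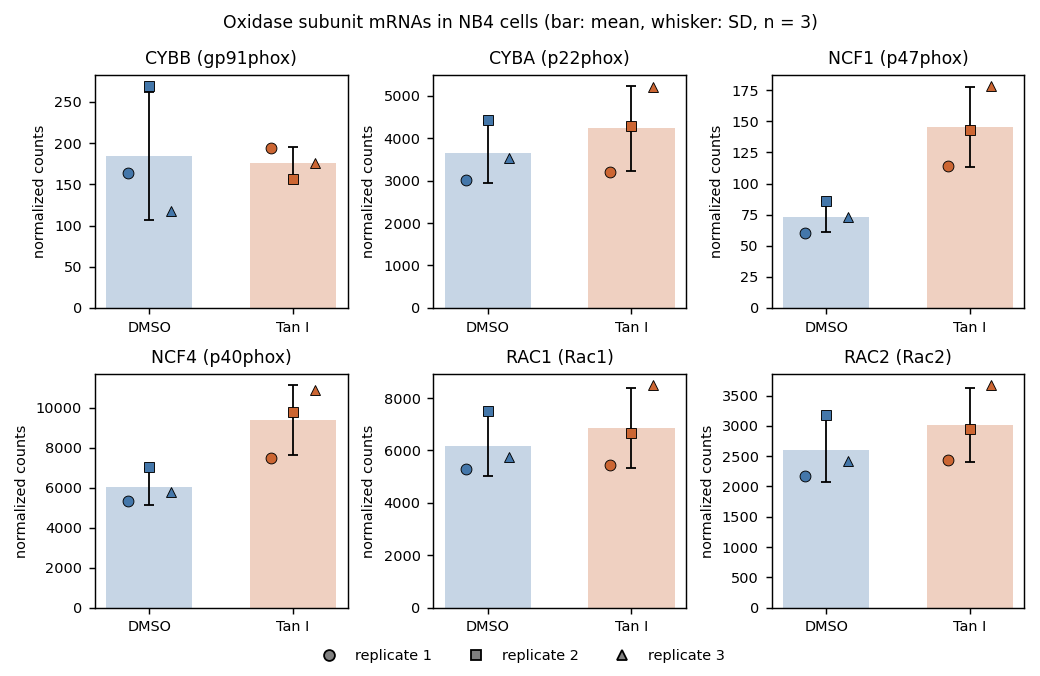
Normalized counts of the 6 oxidase subunit genes (y axes, each from 0) in the DMSO and Tan I libraries. Symbols are single libraries by replicate number, bars are means and whiskers the SD (n = 3); only for NCF1 and NCF4 do all Tan I symbols lie above all DMSO symbols.

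NCF1 (ENSG00000158517) encodes p47phox, whose phosphorylation starts the assembly of the oxidase. The gene spans 74774011 to 74789315 of chromosome 7 (GRCh38, + strand), and GENCODE release 44 gives its canonical transcript 11 exons. NCF1 had 60.6, 85.7 and 73.4 normalized counts in DMSO replicates 1, 2 and 3. In Tan I replicates 1, 2 and 3 it had 114, 143 and 179. The lowest Tan I library thus lay above the highest DMSO library. The mean ± SD of 3 libraries was 73.3 ± 12.6 for DMSO and 145 ± 32.2 for Tan I. The log2 fold change was 0.97 with a standard error of 0.24 and a 95% confidence interval from 0.42 to 1.52 (limma, unadjusted p = 0.00404, adjusted p = 0.999). The exact two-sided permutation test gave p = 0.1, below which a comparison of 3 with 3 cannot go. These levels rest on few reads, 65 to 94 per DMSO library and 117 to 136 per Tan I library.

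NCF1 has a pair of close copies on chromosome 7, the pseudogenes NCF1B and NCF1C, and reads that mapped to several places were removed by the authors. Of the 1200 windows of 150 bases in the canonical NCF1 transcript, 47.3% recurred letter for letter elsewhere in the genome or in transcripts of other genes. Transcripts under the name NCF1B shared 36.5% of the windows and those of NCF1C 26.6%. GENCODE gives the name NCF1B to another, overlapping gene as well, so the 36.5% is not that of the counted entry alone. Of the windows in the canonical transcript of the counted NCF1B entry, 7.24% were found in NCF1. Reads from the shared stretches may therefore be missing from the level of NCF1, and the share of its reads that was lost is unknown. The reads were paired-end, so a read in a shared stretch can still be placed if its mate lies in a differing stretch. The windows were taken singly and do not account for this. NCF1B had 17.7, 38.5 and 14.8 normalized counts with DMSO and 36.2, 34.8 and 56.0 with Tan I. For NCF1C the values were 25.2, 39.5 and 27.3 in DMSO and 43.0, 32.7 and 78.7 in Tan I. Both copies overlapped between the groups, and neither was called (log2 fold change 0.90 ± 0.42 for NCF1B and 0.66 ± 0.38 for NCF1C, SE). Of their own 150-base windows, 14.2% for NCF1B and 39.5% for NCF1C recurred elsewhere, so their levels may lack reads too. A sum over NCF1, NCF1B and NCF1C, formed after the values were seen, was 104, 164 and 116 in DMSO and 194, 211 and 313 in Tan I. This sum did not overlap between the groups either, with 1.87 times the DMSO mean in Tan I (exact two-sided permutation test, p = 0.1). NCF1 is part of the sum and already lay apart between the groups, so the sum gives no separate support.

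NCF4 (ENSG00000100365) encodes p40phox, which binds the lipid phosphatidylinositol 3-phosphate of phagosome membranes. The gene spans 36860988 to 36878017 of chromosome 22 (+ strand) and has 10 canonical exons. NCF4 had 5322, 7023 and 5787 normalized counts in DMSO replicates 1, 2 and 3, and 7474, 9813 and 10871 in Tan I replicates 1, 2 and 3. The gap between the groups was narrow, from 7023 in the highest DMSO library to 7474 in the lowest Tan I library. The mean ± SD of 3 libraries was 6044 ± 879 for DMSO and 9386 ± 1738 for Tan I. The log2 fold change was 0.63 with a standard error of 0.18 and a 95% confidence interval from 0.21 to 1.05 (limma, unadjusted p = 0.00899, adjusted p = 0.999). Of all genes tested, 1.5% had a log2 fold change at least as high as that of NCF4. Each library had at least 5708 reads on NCF4, and 0% of its 150-base windows recurred elsewhere, unlike for NCF1. The annotated antisense gene NCF4-AS1 overlaps it and had between 14.4 and 43.2 normalized counts, under 1% of the level of NCF4 in each library.

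CYBB (ENSG00000165168) encodes gp91phox, the chain that carries the electrons. The gene spans 37780018 to 37813461 of chromosome X (+ strand) and has 13 canonical exons. CYBB had 164, 270 and 118 normalized counts in DMSO replicates 1, 2 and 3, and 195, 156 and 176 in Tan I replicates 1, 2 and 3. All Tan I libraries lay inside the range of the DMSO libraries, which alone spanned 2.29-fold. The log2 fold change was 0.01 with a standard error of 0.30 and a 95% confidence interval from -0.68 to 0.71 (limma, adjusted p = 0.999). As a fold this interval is 0.622 to 1.63, and these libraries did not exclude a fold within it. The direction was not fixed: it turned to -0.049 when each library was rescaled to the same total. Without DMSO replicate 2 the log2 fold change was 0.33, and without DMSO replicate 3 it was -0.27.

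CYBA (ENSG00000051523) encodes p22phox, which stabilizes gp91phox and offers the docking site for p47phox. The gene spans 88643275 to 88651083 of chromosome 16 (- strand) and has 6 canonical exons. CYBA had 3004, 4422 and 3526 normalized counts in DMSO and 3202, 4286 and 5209 in Tan I, in the order of the replicate numbers. Of the Tan I libraries only replicate 3 lay above the DMSO range. The log2 fold change was 0.20 with a standard error of 0.21 and a 95% confidence interval from -0.30 to 0.70 (limma, adjusted p = 0.999). Without Tan I replicate 3 it was 0.039.

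Within each library, CYBB had 0.0546, 0.0610 and 0.0335 times the normalized counts of CYBA in DMSO and 0.0607, 0.0364 and 0.0338 times in Tan I. This ratio overlapped between the groups, with a difference of -0.19 on the log2 scale (exact two-sided permutation test, p = 0.9). Set against CYBA, NCF1 gave ratios of 0.0202, 0.0194 and 0.0208 in DMSO and 0.0357, 0.0334 and 0.0343 in Tan I. The same ratio for NCF4 was 1.77, 1.59 and 1.64 in DMSO and 2.33, 2.29 and 2.09 in Tan I. The ratios to CYBA were chosen after the values were seen. For both genes they lay apart between the groups (exact two-sided permutation test, p = 0.1 each). They differed by 0.77 for NCF1 and 0.42 for NCF4 on the log2 scale, where the SD within a group was at most 0.054 and 0.086. The SD for NCF1 does not measure how certain its difference is, since it comes from 3 libraries with 65 to 136 NCF1 reads each. Counting noise on so few reads can be larger than this SD.

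**Figure D2:**
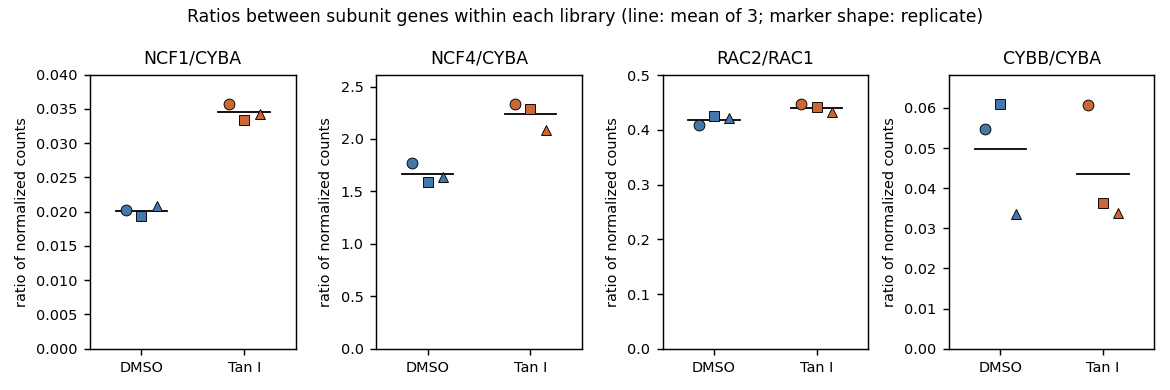
Ratios of normalized counts between subunit genes within each library (y axes from 0), for DMSO and Tan I; symbols are libraries by replicate number and lines are means of 3. NCF1/CYBA lies near 0.02 in DMSO and between 0.0334 and 0.0357 in Tan I, while CYBB/CYBA overlaps between the groups.

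RAC1 (ENSG00000136238) and RAC2 (ENSG00000128340) encode closely related GTPases that switch the oxidase on; RAC1 is made in most cell types, and RAC2 mainly in blood cells. RAC1 spans 6374527 to 6403967 of chromosome 7 (+ strand, 6 canonical exons). RAC2 spans 37225270 to 37259594 of chromosome 22 (- strand, 7 canonical exons), the chromosome of NCF4. RAC1 had 5310, 7497 and 5742 normalized counts in DMSO and 5463, 6654 and 8483 in Tan I. RAC2 had 2174, 3184 and 2426 in DMSO and 2445, 2940 and 3667 in Tan I. In both genes only Tan I replicate 3 lay above the DMSO range. The log2 fold changes were 0.14 (95% confidence interval -0.33 to 0.61) for RAC1 and 0.22 (-0.25 to 0.68) for RAC2, with an adjusted p of 0.999 each from limma. Without Tan I replicate 3 they were -0.020 and 0.066.

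The ratio of RAC2 to RAC1 within a library varied little. It was 0.409, 0.425 and 0.423 with DMSO and 0.447, 0.442 and 0.432 with Tan I. All Tan I values lay above all DMSO values, by 0.07 on the log2 scale on average (exact two-sided permutation test, p = 0.1). In the canonical RAC1 transcript, 208 of 2160 windows of 150 bases (9.63%) recurred elsewhere, and 206 of those were found in the pseudogene RAC1P2, against 0% for RAC2, CYBA and CYBB.

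CYBA, RAC1 and RAC2 moved together from library to library. Their centred log2 values differed by a root mean square of 0.042 between RAC1 and RAC2. It was 0.052 between CYBA and RAC2, 0.060 between CYBA and RAC1, and at least 0.34 between CYBB and each of these genes. Genes outside the oxidase lay closer still, such as SELENOH to CYBA (0.0092), ATIC to RAC1 (0.018) and TBCB to RAC2 (0.010). Moving together was thus not particular to the subunits. In each group CYBA, RAC1, RAC2, NCF1 and NCF4 had the same order of libraries, which was also the order of the summed normalized counts. Relative to their mean, these sums were 0.929, 1.03 and 0.973 in DMSO replicates 1, 2 and 3 and 0.933, 1.0 and 1.13 in the Tan I replicates. After each library was rescaled to the same total, the log2 fold changes were 0.91 for NCF1, 0.57 for NCF4, 0.16 for RAC2, 0.14 for CYBA and 0.08 for RAC1.

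**Figure D3:**
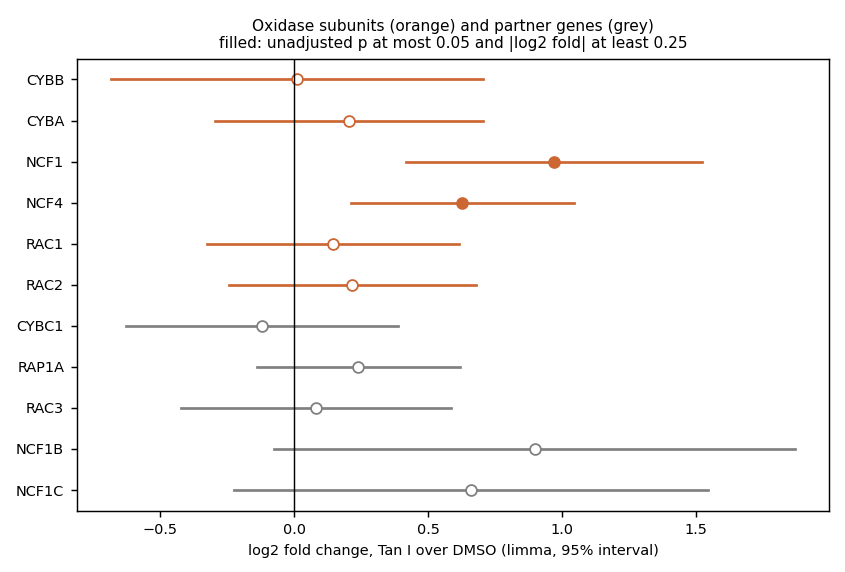
Log2 fold changes of Tan I over DMSO (x axis) with 95% confidence intervals from limma for the 6 subunit genes (orange) and for partner genes and NCF1 copies (grey). Filled points passed the unadjusted rule, and only the intervals of NCF1 and NCF4 lie wholly above 0.

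Levels were compared between genes per length, as TPM values (counts per base of transcript, scaled to the same sum in each library) computed here from the normalized counts and the canonical transcript lengths. On this scale CYBA had 388 ± 31.1 TPM with DMSO and 419 ± 30.3 with Tan I, and NCF4 had 324 ± 10.4 and 469 ± 30.3 (SD, n = 3 each). Over the 6 libraries these genes averaged 403 and 396, with overlapping ranges, and stood at the 98.5th percentile of the listed genes. RAC1 averaged 200.4 and RAC2 135, with ranges that did not overlap. NCF1 and CYBB were far lower, at means of 5.69 and 3.02 with overlapping ranges. The value of NCF1 may be too low, since 47.3% of its windows recurred elsewhere, against 0% for CYBB. It was not corrected for reads lost in this way. NCF1 had 4.0 ± 0.25 TPM with DMSO and 7.39 ± 0.32 TPM with Tan I (SD, n = 3 each). The order among CYBA, RAC1, RAC2 and the pair NCF1 and CYBB depended on the length used: over all merged exons the means were 472 for NCF4, 147 for RAC2, 130 for CYBA, 108 for RAC1, 5.18 for CYBB and 4.36 for NCF1.

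Promoter sequences from RefSeq (GRCh38.p14) matched CYBB, CYBA and NCF1 and did not match NCF4, RAC1 and RAC2. They were searched on both strands for GAGGAA, a purine box that the myeloid transcription factor PU.1 can bind, and for CCAAT. The 250 bases before the RefSeq start site are shown for NCF1 and CYBB, the genes whose windows held the purine box. Capitals mark the matches, and TTCCTC and ATTGG are the boxes read on the other strand.
NCF1 promoter, chr7:74773761-74774010, + strand: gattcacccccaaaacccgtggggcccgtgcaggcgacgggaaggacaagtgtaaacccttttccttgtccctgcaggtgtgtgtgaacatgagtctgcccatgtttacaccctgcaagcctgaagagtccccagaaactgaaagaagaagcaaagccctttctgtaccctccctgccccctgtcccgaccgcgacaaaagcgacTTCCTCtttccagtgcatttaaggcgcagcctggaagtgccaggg
CYBB promoter, chrX:37779809-37780058, + strand: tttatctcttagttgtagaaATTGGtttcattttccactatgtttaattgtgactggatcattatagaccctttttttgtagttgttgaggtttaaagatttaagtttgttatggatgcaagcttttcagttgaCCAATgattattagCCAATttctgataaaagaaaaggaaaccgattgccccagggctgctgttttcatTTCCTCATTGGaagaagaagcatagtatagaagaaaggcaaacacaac

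The purine box lay from -45 to -40 relative to the RefSeq start in NCF1 and from -48 to -43 in CYBB, and the CYBA window held none. The RefSeq start of CYBB lies 41 bases inside the gene span given above, and from the first base of that span the box is at -7 to -2. CYBB also held 4 CCAAT boxes, one of them directly beside the purine box, while the windows of NCF1 and CYBA held none. Of 27305 promoter windows of this length, 23.4% held GAGGAA and 33.0% held CCAAT on either strand. A match is a run of letters and not a measured site. The mRNA of PU.1 itself, SPI1, had 1399, 1921 and 1514 normalized counts in DMSO and 1679, 2170 and 2380 in Tan I, overlapping between the groups, with a log2 fold change of 0.36 ± 0.18 (SE, unadjusted p = 0.0779, limma). SPI1 passed the unadjusted rule under 4 of 17 alternatives and did not pass under 13, among them the rescaling to the same total. In limma its unadjusted p was 0.0449 with the replicate block and 0.0430 with libraries rescaled to the same length-weighted total. The latter alternative was added after the data were seen. MEIS1, another transcription factor of the lists, also passed under 4. SPI1 was singled out after its values were seen.

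The genes around the oxidase were read from lists that hold 79 genes, of which 71 were in the table and 70 were tested. Of these, 1 was called higher and 2 lower under the unadjusted rule, 67 were not called, and 0 passed after adjustment in limma and in edgeR, while DESeq2 called 2. The median log2 fold change over the 70 genes was 0.03, against 0.21 over the 6 subunit genes and 0.00 over all genes tested. Among the partner genes were CYBC1, a chaperone of flavocytochrome b558, with a log2 fold change of -0.12 ± 0.22, RAP1A, a small GTPase found with the flavocytochrome, with 0.24 ± 0.16, and RAC3, a relative of RAC1, with 0.08 ± 0.22 (SE). None of these was called, and in each the groups overlapped.

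Of 10 genes for other enzymes of the NOX family and their partners, 5 were in the table and 0 were called (limma, unadjusted rule). Their normalized counts were highest for NOXA1, with 299 ± 12.5 in DMSO and 299 ± 25.4 in Tan I, and the log2 fold change of largest size was 0.36 ± 0.40 (SE) for NOX1, which averaged 13.4. Of 14 tested exchange factors, inhibitors and GTPase-activating proteins of Rac, 0 were called. The most abundant was ARHGDIB, which holds Rac proteins in the cytosol, at 13448 ± 1964 in DMSO and 15401 ± 3122 in Tan I, and the most different was ARHGAP25 at a log2 fold change of 0.28 ± 0.22 (SE). Of 18 tested receptors and kinases upstream of the oxidase, 0 were called. The median of that list was -0.04, with -0.04 ± 0.16 for PLCG2, its most abundant gene, and -0.31 ± 0.19 for PRKCA (SE). Of 11 tested transcription factors known to act on subunit genes, 0 were called, the log2 fold change was -0.28 ± 0.15 for ELF1, the most abundant, and -0.65 ± 0.30 for MEIS1, the most different (SE).

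In the reported fit, the calls among the lists fell on enzymes that handle superoxide and peroxide. There 3 of 16 genes passed the unadjusted rule, which called 2.42% of all genes. The list was written with earlier results of these data known, so this share does not test it. MPO and EPX were called under 17 of 17 alternatives and TXNRD1 under 10, while 12 other list genes, some of them in other lists, were called under at most 4 alternatives each. MPO, the granule enzyme that turns the peroxide downstream of the oxidase into hypochlorous acid, had 60389, 64107 and 63267 normalized counts in DMSO and 33279, 39450 and 37076 in Tan I. EPX, its eosinophil relative, had 2568, 2904 and 2712 in DMSO and 1264, 1533 and 1614 in Tan I. Both were thus lower in each Tan I library, at log2 fold changes of -0.78 ± 0.15 and -0.90 ± 0.13 (SE), opposite in sign to NCF1 and NCF4. Their adjusted p-values were 0.999 and 0.996 in limma, but 3.86e-09 and 5.45e-07 in DESeq2 on the recovered reads. TXNRD1, a thioredoxin reductase, was higher in each Tan I library, with 4271, 5192 and 4258 in DMSO and 6072, 5785 and 5628 in Tan I. The log2 fold change was 0.36 ± 0.12 (SE, limma, unadjusted p = 0.0217, adjusted p = 0.999). The remaining 13 genes of this list were not called.

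**Figure D4:**
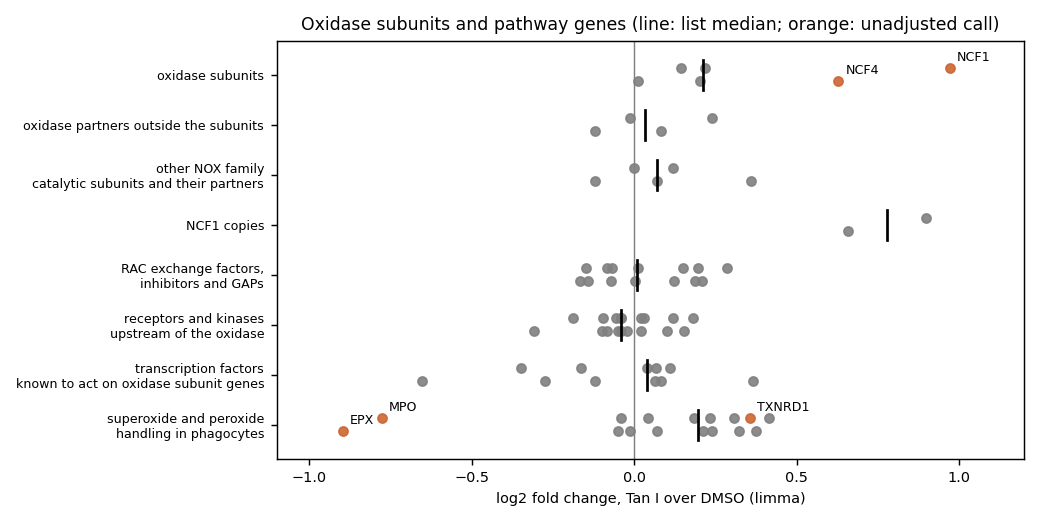
Log2 fold changes of Tan I over DMSO (x axis, limma) for the tested genes of each list (rows); each point is a gene, black lines are list medians and orange points passed the unadjusted rule. NCF1 and NCF4 lie at 0.97 and 0.63, and MPO and EPX at -0.78 and -0.90.

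As a check of the cell type, 5 of the 6 promyelocyte markers were in the table. Their summed normalized counts were 70959 to 76923 in DMSO and 41825 to 50123 in Tan I, most of it MPO. CTSG was also lower with Tan I without overlap, at 839 to 1496 against 1536 to 2392 with DMSO. AZU1, PRTN3 and CD33 overlapped between the groups, so the sum does not stand for each marker. Of the 6 markers of mature neutrophils 3 were listed, summing to 2178 to 2461 in DMSO and 1780 to 2225 in Tan I, nearly all of it CSF3R. The 4 listed monocyte markers summed to 40.1 to 97.3 in DMSO and 46.4 to 76.0 in Tan I. The T cell list of 3 genes summed to 320 to 479 in DMSO and 354 to 620 in Tan I, mostly CD3D. For erythroid, B cell and fibroblast markers 1, 2 and 2 genes were listed, with sums of at most 51.3, 179 and 152. Their part in the results above was not tested.

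By the root mean square difference of centred log2 values over the 6 libraries, PIR was the gene most like NCF1 (0.066), and the genes most like NCF4 were MGST1 (0.054) and GAPDHP65 (0.058). For CYBA they were SELENOH (0.0092) and SDHAF3 (0.017), for RAC1 ATIC (0.018) and ATXN10 (0.019), and for RAC2 TBCB (0.010) and PRPSAP2 (0.022). CYBB had no gene closer than VPREB3 and CD22 at 0.12 each, which averaged only 18.6 and 14.7 normalized counts. For comparison, NCF1 and NCF4 differed from each other by 0.18. With 6 libraries and 16887 genes such likeness is a description only.

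**Figure D5:**
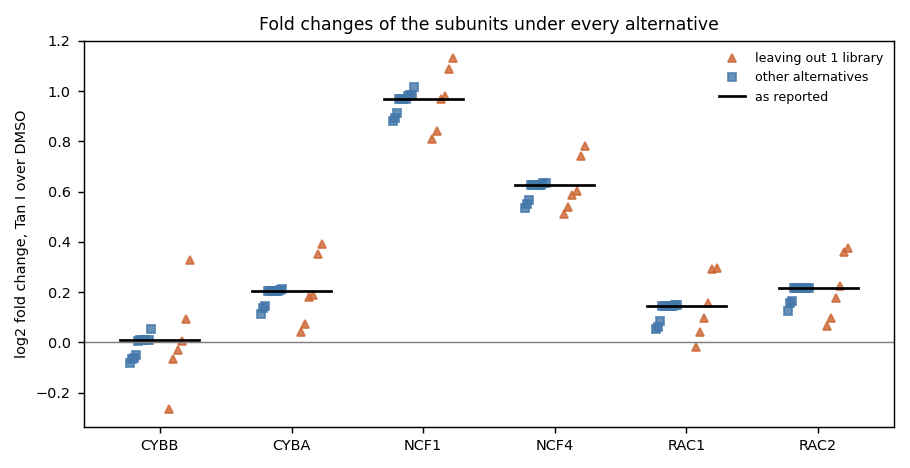
Log2 fold changes of Tan I over DMSO (y axis) for the 6 subunit genes as reported (black lines), with 1 library left out (triangles) and under the other alternatives (squares). NCF1 stays between 0.81 and 1.13 and NCF4 between 0.51 and 0.78, while CYBB lies on both sides of 0.

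Under the alternatives set beside the reported fit, NCF1 and NCF4 passed the unadjusted rule each time. Their unadjusted p-values lay between 0.000368 and 0.0172 for NCF1 and between 0.000938 and 0.0383 for NCF4. Their adjusted p-values reached down to 0.155 and 0.254, both with DESeq2, and none was at most 0.05.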

How the data were processed

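RNA-seq libraries of NB4 cells (3 per group) were grouped by their labels. The authors mapped reads to GRCh38 with STAR, discarded those with several mapping positions, obtained gene counts from featureCounts and used DESeq2. Versions, annotation release and strand setting are not given in the sources used here. The deposited signal values are read counts divided by 1 size factor per library, and 100% of them were whole multiples of 1 read (tolerance 0.001). The authors' log2 fold changes, standard errors, Wald score and p-values in the deposited table were left out.

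Genes averaging 10 or more normalized counts (16887 of 18625) were tested with limma 3.58.1 in R 4.3.3 (eBayes with trend) on log2(value + 1), modelling treatment alone, with Benjamini-Hochberg adjustment over all of them. This scale understates the change of genes with few reads. As alternatives, edgeR 4.0.16 (quasi-likelihood) and DESeq2 1.42.0 were run on recovered reads, and scaling, filter, pseudocount and libraries were varied. The limma, edgeR and DESeq2 fits were tested on simulated reads. These were drawn independently for each library, so deviations shared between libraries were not simulated. Single values were compared by exact two-sided permutation tests. Positions and lengths came from GENCODE release 44 (99.6% of identifiers matched). Named beyond the 6 genes were list genes called, the most abundant and most different tested gene of each list, and the 2 genes most like each subunit. CYBC1, RAC3, NCF1B, NCF1C, NCF4-AS1 and SPI1 were added with their values known. Some genes that these rules name are not reported here. The genes and lists were chosen with earlier results of these data known.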

Additional observations from a re-analysis of the deposited data

How the results depend on the processing

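The alternatives changed 1 choice at a time, except that edgeR and DESeq2 changed both the input (recovered reads) and the test. NCF1, NCF4, CYBA and RAC2 kept their direction and stayed above an adjusted p of 0.05 under 17 of 17 alternatives, and the unadjusted rule called 2 of the 6 subunit genes in each. CYBB turned to -0.049 with libraries rescaled to the same total, -0.065 with edgeR, -0.063 with DESeq2 and -0.081 with a length-weighted total, an alternative added after seeing the data; leaving out 1 library gave -0.27 (without DMSO replicate 3) to 0.33 (without DMSO replicate 2). For RAC1 leaving out 1 library gave -0.020 (without Tan I replicate 3) to 0.30. The same alternative moved the count of all genes called without adjustment from 408 to between 160 (without Tan I replicate 2) and 1496 (without Tan I replicate 1), and that of list genes from 3 to between 2 and 12 (9 without DMSO replicate 2, 12 without Tan I replicate 1). DMSO replicates 1 and 3 also moved the first count by over 1.5 times when left out, to 180 and 201, as did Tan I replicate 3, to 271. With adjustment, DESeq2 called 16 genes and 2 list genes (MPO and EPX) and the length-weighted total 1 gene, against 0 in the reported fit. DESeq2 gave no adjusted p for 3602 genes, which stayed out of its counts. The cause of these differences was not tested.

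Of the samples sharing a replicate number, those numbered 1 deviated together and were the closest pair of libraries. Those numbered 2 and 3 did not. The correlations were 0.751, -0.088 and -0.451, so the numbers were not taken as pairs. DMSO replicate 2 and Tan I replicate 3 deviated together as strongly (0.758), while DMSO replicate 1 and Tan I replicate 3 deviated in opposite directions (-0.739). Likeness between libraries thus crossed the groups, and its source was not tested. With the replicate block the unadjusted rule called 348 of all genes, 2 of the subunit genes and 4 list genes (SPI1 beside the 3 reported), and the log2 fold changes of the subunits were those reported, 0.97 for NCF1 and 0.63 for NCF4. The block left the ratio differences at 0.073 for RAC2/RAC1 and -0.19 for CYBB/CYBA. Few reads limit NCF1 and CYBB. Levels of protein and of superoxide were not analysed here.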
